A study of Mus musculus with 24 samples.

Results

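Astrocyte genes were examined in the brains of mice kept under chronic mild stress (CMS) and of control mice. The genes are 36 symbols that mark astrocytes, chosen by name: intermediate filaments, channels and transporters, enzymes of glutamate and energy metabolism, metallothioneins, secreted proteins, and transcription factors with surface proteins. Of the 36 symbols, 35 had a probe set of their own among 18193 genes measured, and the symbol Cpe2 matched none. Probe sets of one gene were averaged on the log2 scale. The 35 genes had 76 probe sets, with 1 for each of 16 genes and several for each of 19.

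RNA from 4 brain areas, comprising amygdala, hippocampus, prefrontal cortex (PFC) and cerebral cortex (CC), was hybridised to 24 Affymetrix arrays. All animals were wild-type C57BL/6 males with a labelled age of 6 to 8 weeks. The methods give this as the age at purchase, before the stress. The CMS animals met mild stressors in an unpredictable order on 6 days a week over 4 weeks, and the controls met none. Each of the 8 groups has 3 arrays. The comparison asks how CMS changes expression in each area. The areas are whole dissected tissue, so fewer astrocytes and less RNA per astrocyte cannot be told apart in any result.

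Astrocytes take up glutamate and potassium that neurons release, make glutamine, and pass ions and metabolites to each other through gap junctions. Their endfeet line blood vessels and hold water channels, and their secreted proteins carry lipids and shape synapses. After injury or inflammation they enlarge and raise their intermediate filaments, a state called reactive.

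Each probe set was centred on its median over the arrays, so values compare arrays and areas for a gene, but not one gene with another. All 6 defining markers (Gfap, Aqp4, Slc1a2, Slc1a3, Gja1 and Aldh1l1) had probe sets, but centred values cannot show whether a gene was above background. The area labels could be checked against marker lists. A list of hippocampal genes averaged 2.28 to 2.42 on the hippocampal arrays and -0.53 to 0.091 on all others. A list of neocortical layer genes averaged 0.19 to 0.38 on the arrays of both cortical areas and -0.92 to -0.19 elsewhere. Replicate 3 of the control CC stood apart, with a mean correlation of 0.690 with the other arrays of its group.

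CMS and control arrays also differed in markers of neighbouring tissue and other cells. In the amygdala, the mean of a hypothalamic gene list was 0.80 to 1.00 with CMS and 1.43 to 1.68 in controls, and Pmch, a hypothalamic neuropeptide gene, differed by -4.18 (adjusted p = 0.000106). In the hippocampus, the mean of a list for thalamus and habenula was 0.30 to 0.32 with CMS and -0.71 to -0.57 in controls. In the CC, the choroid plexus list averaged -1.10 to -1.08 with CMS and 1.62 to 1.68 in controls, and the striatal list averaged -0.81 to -0.72 with CMS and -2.35 to -2.16 in controls. In the PFC, the list for neutrophils and blood averaged 3.98 to 4.11 with CMS and 0.80 to 0.91 in controls. The bacterial transcripts added as hybridisation controls averaged 0.74 to 0.88 with CMS and -0.0072 to 0.031 in controls in the amygdala, and -1.45 to -1.40 with CMS and -1.14 to -1.09 in controls in the hippocampus. They averaged 0.0033 to 0.039 with CMS and 0.058 to 0.22 in controls for the CC, and 0.14 to 0.16 and -0.18 to -0.12 for the PFC. The 3′ probe sets of Gapdh and Actb minus the 5′ probe sets, a sign of RNA integrity, differed in all 4 areas. It averaged 0.081 to 0.13 with CMS and -0.033 to 0.016 in controls in amygdala tissue, and -0.33 to -0.29 against -0.27 to -0.23 in hippocampal tissue. For the CC it was -0.25 to -0.20 with CMS and 0.11 to 0.23 in controls, and for the PFC -0.079 to 0.0032 and 0.042 to 0.11. None of these ranges overlapped, and the part of these differences in the results on astrocyte genes was not tested.

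The astrocyte genes moved differently in each area. A gene passed the test at a Benjamini-Hochberg adjusted p under 0.05 over all genes in limma. In the amygdala, 17 of the 35 fell and 1 rose, where 8.84% of all genes fell and 10.5% rose. In the hippocampus, 11 fell and 1 rose, where 24.9% of all genes fell and 4.66% rose. The 11 are 31.4% of the genes, near that background. In the CC, 8 rose and 0 fell, where 5.95% of all genes rose and 3.99% fell. In the PFC, 8 fell and 4 rose, where 3.92% and 4.45% of all genes did. Without overlap of the arrays, 21 genes lay lower with CMS in the amygdala and 1 higher, where 15.5% and 39.7% of all genes did. In the hippocampus 16 lay lower and 4 higher, where 48.2% and 8.16% did. For the CC these counts were 3 and 18, where 37.8% and 14.3% did, and for the PFC 10 and 6, where 12.8% and 35.2% did. Without control replicate 3, the CC array that stands apart, 10 genes passed there instead of 8, but leaving out any other array of the area gave 4 to 6, with 4 without CMS replicate 2. At an unadjusted p under 0.05, 18 were higher and 2 lower with CMS in the CC. The share of all genes at that unadjusted p was not computed, so these 2 counts have no background.

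The median difference of the 35 genes was -0.19 in the amygdala, 0.15 in the CC, -0.086 in the hippocampus and -0.032 in the PFC. The median over all genes was 0.022, -0.031, -0.048 and 0.019 in the same order. Of the 35 genes, 26 lay in the more variable 9096 of the 18193 genes. Of those 9096, 14.4% fell in the amygdala, 18.2% fell in the hippocampus and 9.86% rose in the CC. In the PFC 6.75% of them fell and 7.06% rose. With a fold change over 2 as well, 3 genes fell in the amygdala (Agt, Fabp7 and Slc14a1), where 0.44% of all genes did. Fabp7 alone fell by that much in the hippocampus, against 0.11% of all genes. In limma no astrocyte gene passed with that fold in the CC or the PFC, also at an unadjusted p under 0.05 or with the methods' t-test, where 0.357% and 0.247% of all genes did.

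**Figure D1:**
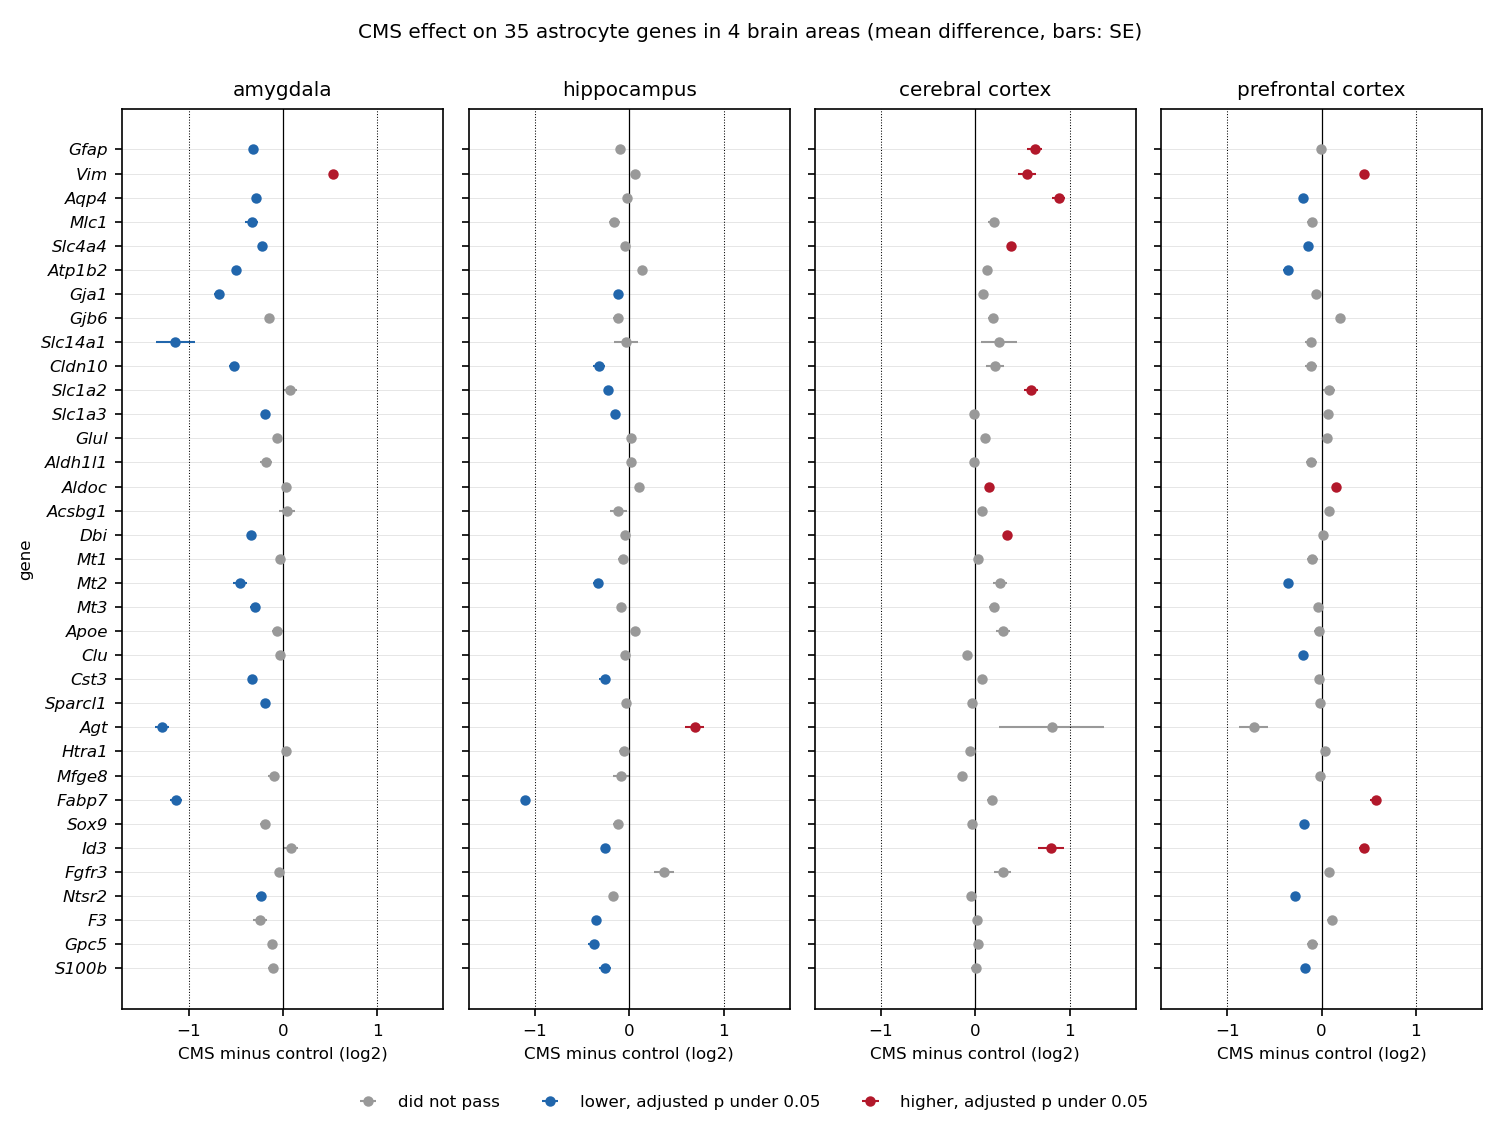
CMS minus control of each of the 35 astrocyte genes in 4 brain areas, on the log2 scale (x axis), with genes in rows by role; points are mean differences of 3 CMS and 3 control arrays, bars are SE, and dotted lines mark a fold of 2. Blue points (lower) fill the amygdala panel with 17 genes, red points (higher) number 8 in the CC, and the PFC holds both.

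The intermediate filament genes Gfap and Vim, which build the astrocyte skeleton, took opposite directions in the amygdala. Gfap read 0.16, 0.067 and 0.033 on the 3 CMS arrays of the amygdala and 0.42, 0.39 and 0.39 on the control arrays. It fell there by 0.31 on the log2 scale, with all CMS arrays below all control arrays (SE 0.0377, adjusted p = 0.0086). Its CC arrays read -0.20, -0.13 and -0.22 with CMS and -0.67, -0.80 and -0.97 in controls. It rose there by 0.63 ± 0.08 (SE, adjusted p = 0.0117), again without overlap. In the hippocampus, where its level was highest, the difference was -0.10 ± 0.0266 (SE, adjusted p = 0.0511), and in the PFC it was -0.0022 ± 0.0465 (SE, adjusted p = 0.976) with overlapping arrays.

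Vim, the vimentin gene, is also made by endothelial cells and immature glia. It read 0.28, 0.27 and 0.34 with CMS and -0.28, -0.20 and -0.24 in controls in the amygdala, a rise of 0.53 ± 0.0302 (SE, adjusted p = 0.00166). It also rose in the CC, by 0.54 ± 0.0961 (SE, adjusted p = 0.0278), and in the PFC, by 0.45 ± 0.0211 (SE, adjusted p = 0.00166). The CC arrays read -0.13, -0.17 and -0.15 with CMS and -0.64, -0.54 and -0.91 in controls. The PFC arrays read 0.37, 0.34 and 0.35 and -0.088, -0.08 and -0.13. In these 3 areas every CMS array lay above every control array, but the CC call was lost in 4 of 6 fits with 1 array left out. In the hippocampus the arrays overlapped, with a difference of 0.061. Beside Vim, the endothelial and mural list held 12 genes, of which 6 rose and 1 fell in amygdala tissue, 4 rose and 1 fell in the CC, and 4 rose and 0 fell in the PFC. Of all genes, 10.5% rose in the amygdala, 5.95% in the CC and 4.45% in the PFC, and 8.84%, 3.99% and 3.92% fell.

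Genes of water, ion, urea and bicarbonate transport and of cell junctions fell together in the amygdala, where 7 of 8 passed and the eighth, the connexin gene Gjb6, differed by -0.14 ± 0.0474 (SE, adjusted p = 0.0968). Of all genes, 8.84% fell in the amygdala. In the hippocampus 2 of the 8 fell, near the 24.9% of all genes that fell there. In the PFC 3 fell, where 3.92% of all genes did, and in the CC 2 rose, where 5.95% did. Slc14a1, the urea transporter gene, read -0.50, 0.068 and 0.073 with CMS and 1.11, 1.19 and 0.76 in controls in the amygdala. The fall was 1.14 on the log2 scale (SE 0.208, adjusted p = 0.0237), and the arrays did not overlap although they spread more than those of the other genes here. It did not pass without CMS replicate 2, control replicate 1 or control replicate 2, with an adjusted p up to 0.0878 over all alternatives run.

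Gja1 encodes the main gap junction protein (connexin) of astrocytes. Its amygdala arrays read -0.25, -0.15 and -0.055 with CMS and 0.55, 0.50 and 0.52 in controls. The difference was -0.67 ± 0.0541 (SE, adjusted p = 0.00341), with every CMS array below every control array. In the hippocampus it fell by less, -0.11 ± 0.0182 (SE, adjusted p = 0.0188), from 0.13, 0.11 and 0.081 to -0.014, 0.0073 and -0.013. That hippocampal call was lost in 5 of 6 fits with 1 array left out. The gene value was 0.082 in the CC and -0.056 in the PFC, neither of which passed. The 6 probe sets of Gja1 differed in size: 1415801_at gave -2.27 in the amygdala, and the other 5 gave -0.60 to -0.14, all lower with CMS. The same 1415801_at rose in the CC by 0.59 (adjusted p = 0.0284) and fell in the PFC by 0.45 (adjusted p = 0.0156), while none of the other 5 passed in either area.

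Aqp4, the water channel of astrocyte endfeet, read 0.13, 0.13 and 0.11 with CMS and -0.72, -0.65 and -0.90 in controls in the CC. The rise of 0.88 ± 0.0679 (SE, adjusted p = 0.00354) was the widest among the 8 genes that rose there. In the amygdala Aqp4 read 0.28, 0.30 and 0.25 with CMS and 0.55, 0.52 and 0.60 in controls, a fall of 0.28 (adjusted p = 0.00533). Its PFC arrays read -0.28, -0.30 and -0.24 with CMS and -0.10, -0.053 and -0.08 in controls, a fall of 0.19 (adjusted p = 0.0131). The arrays of these 3 areas did not overlap, and those of the hippocampus did. The 3 probe sets of Aqp4 did not move alike. For the CC, 1425382_a_at gave 1.84, 1447745_at gave 0.84 and 1434449_at gave -0.031. In the amygdala only 1447745_at passed, at -0.58 (adjusted p = 0.0133). In the PFC only 1425382_a_at passed, at -0.58 (adjusted p = 0.0112), while 1434449_at gave 0.11. The PFC call of the gene was lost in 2 of 6 fits with 1 array left out. In the hippocampus 1425382_a_at rose by 0.22 (adjusted p = 0.0495) and 1434449_at fell by 0.22 (adjusted p = 0.00603), so that the gene value, -0.023, averages opposite changes.

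Slc4a4, the sodium bicarbonate cotransporter, followed the same signs as Aqp4. It rose in the CC by 0.38 ± 0.0247 (SE, adjusted p = 0.00225), with -0.13, -0.14 and -0.15 on the CMS arrays and -0.50, -0.51 and -0.55 on the control arrays. It fell in the amygdala by 0.23 (adjusted p = 0.00929) and in the PFC by 0.14 (adjusted p = 0.0138), the latter lost in 4 of 6 fits with 1 array left out. Only 1 of its 5 probe sets passed in each of these falls, 1452071_at at -0.64 in the amygdala and 1421225_a_at at -0.47 in the PFC. The other probe sets gave -0.37 to 0.017 in the amygdala and -0.13 to 0.017 in the PFC. In the amygdala 1426432_a_at, at -0.37 (adjusted p = 0.0539), and 1434096_at, at -0.11 (adjusted p = 0.0501), came near the threshold. Atp1b2, a beta subunit of the sodium pump, fell in the amygdala by 0.50 (adjusted p = 0.00229) and in the PFC by 0.36 (adjusted p = 0.0162). Its PFC arrays read -0.071, -0.10 and -0.036 with CMS and 0.25, 0.24 and 0.39 in controls. Both Atp1b2 probe sets fell in the amygdala, 1422009_at by 0.83 and 1435148_at by 0.16. But 1422009_at rose in the CC by 0.37 (adjusted p = 0.00374) and in the hippocampus by 0.29 (adjusted p = 0.0196). There 1435148_at gave -0.12 and -0.012, and the gene value passed in neither area. Cldn10, a claudin gene, read 0.0081, -0.093 and 0.019 with CMS and 0.49, 0.57 and 0.45 in controls in the amygdala, a fall of 0.52 (adjusted p = 0.0042). In the hippocampus Cldn10 fell by 0.32 (adjusted p = 0.026), from -0.033, 0.15 and 0.17 to -0.21, -0.21 and -0.26, a call lost in 4 of 6 fits with 1 array left out. Mlc1, a membrane protein gene of endfeet, fell in the amygdala by 0.33 (adjusted p = 0.0338).

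**Figure D2:**
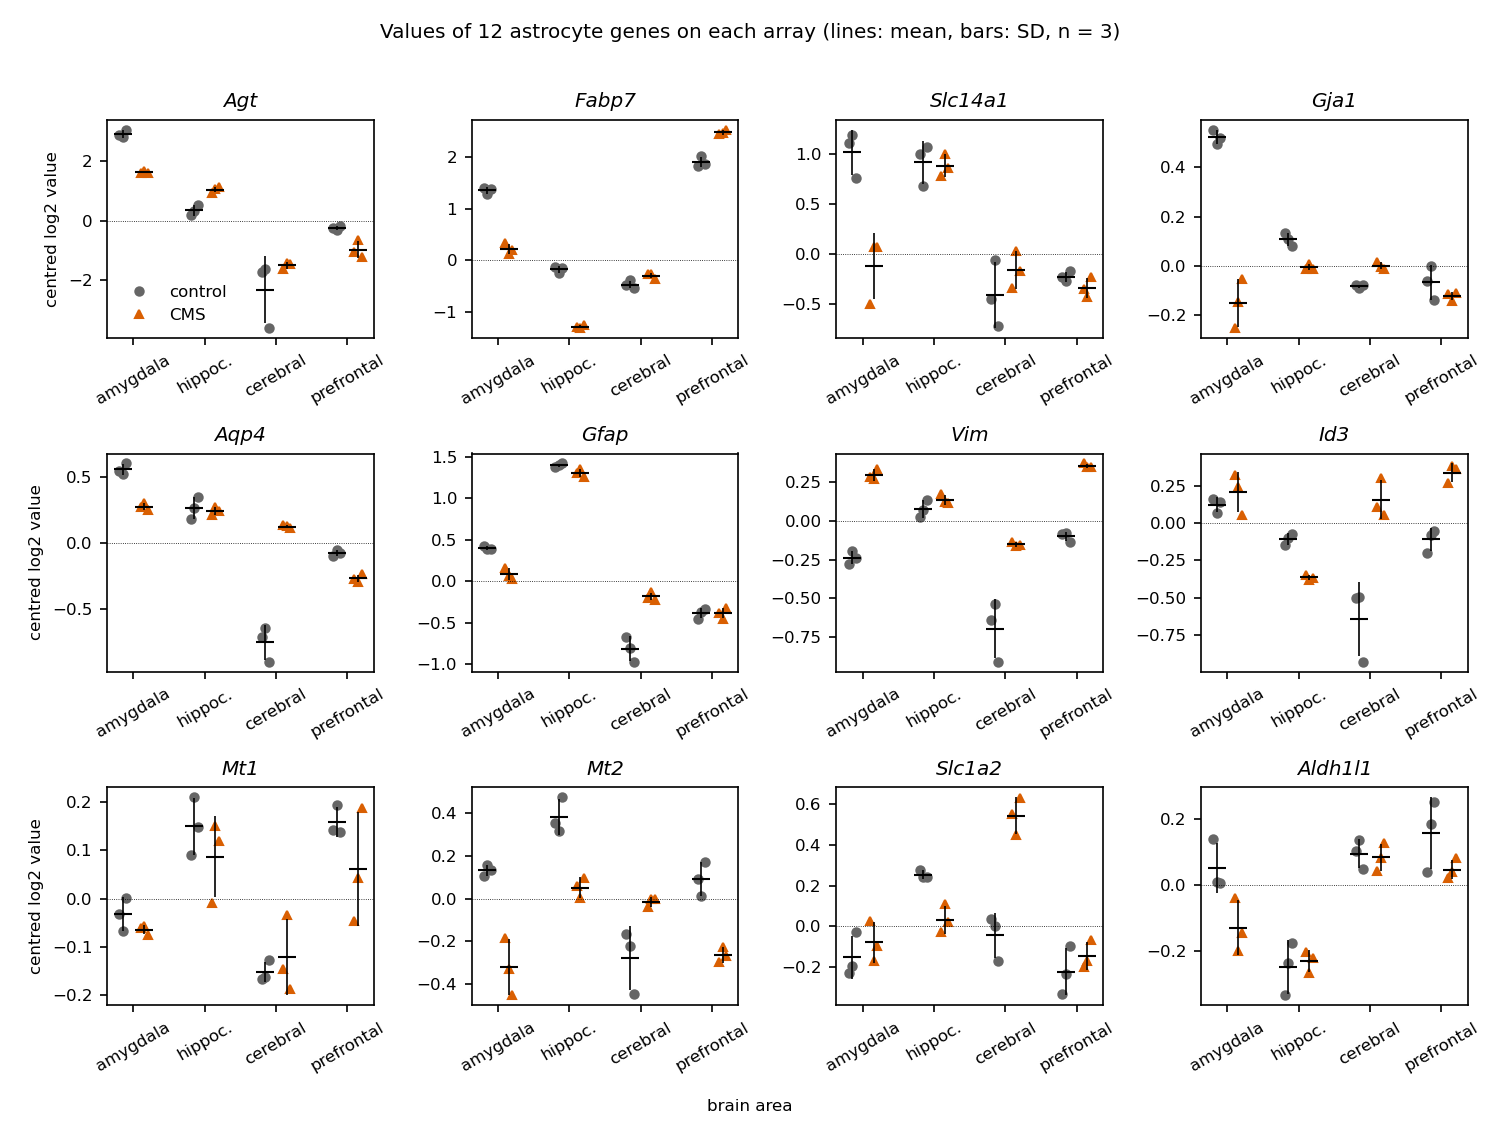
Centred log2 value (y axis) of 12 astrocyte genes on each array in 4 brain areas (x axis), with control arrays as grey circles, CMS arrays as orange triangles, lines for the mean and bars for the SD (n = 3 arrays). Agt, Fabp7, Slc14a1 and Gja1 separate the treatments in the amygdala, Aqp4, Gfap, Vim and Id3 separate them in the CC, and Mt1 and Aldh1l1 overlap in most areas.

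Of the 7 genes for glutamate uptake and metabolic enzymes, 2 fell in the amygdala, 2 fell in the hippocampus, 3 rose in the CC and 1 rose in the PFC. Of all genes, 8.84% fell in the amygdala, 24.9% fell in the hippocampus, 5.95% rose in the CC and 4.45% rose in the PFC. Slc1a2 and Slc1a3 encode the astrocytic glutamate transporters. Slc1a3 read 0.038, 0.045 and -0.003 with CMS and 0.24, 0.21 and 0.20 in controls in the amygdala and fell by 0.19 (adjusted p = 0.00644). In the hippocampus Slc1a3 fell by 0.15 (adjusted p = 0.0129), from -0.018, -0.005 and 0.024 to -0.17, -0.13 and -0.15. Both changes were small, but the arrays did not overlap. Among its 6 probe sets in the amygdala, 1426340_at and 1426341_at gave -0.46 and -0.43, and the other 4 gave -0.26 to 0.058. Its gene values in the CC, -0.011, and the PFC, 0.066, did not pass. The CC value averages opposite readings, since 1426341_at rose by 0.56 (adjusted p = 0.00541) and 1440491_at gave -0.30 (adjusted p = 0.148).

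Slc1a2 rose in the CC by 0.59 ± 0.0732 (SE, adjusted p = 0.011), with 0.55, 0.45 and 0.63 on the CMS arrays and 0.035, -5.5e-05 and -0.17 on the control arrays. That rise came from 1459014_at, at 1.97, and 1439940_at, at 1.01, while the other 3 probe sets lay between -0.027 and -0.0012. The median of its probe sets did not pass, with an adjusted p of 0.107. In the hippocampus Slc1a2 read -0.029, 0.11 and 0.02 with CMS and 0.28, 0.24 and 0.24 in controls, a fall of 0.22 (adjusted p = 0.0221), lost in 4 of 6 fits with 1 array left out. None of its 5 probe sets passed there, with differences from -0.56 to 0.086. The arrays overlapped in the amygdala, at 0.072, and in the PFC, at 0.076.

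For several genes used as astrocyte markers the gene value did not pass in any area. Aldh1l1, the folate enzyme gene used as a general astrocyte marker, differed by -0.18 in the amygdala, -0.012 in the CC, 0.018 in the hippocampus and -0.11 in the PFC. Only its amygdala arrays did not overlap, at -0.038, -0.20 and -0.15 with CMS and 0.14, 0.01 and 0.0054 in controls. Its hippocampal arrays read -0.20, -0.26 and -0.22 and -0.33, -0.23 and -0.17. Those of the CC read 0.043, 0.083 and 0.13 with CMS and 0.10, 0.14 and 0.047 in controls. The PFC arrays read 0.022, 0.039 and 0.081 and 0.04, 0.18 and 0.25. Glul (glutamine synthetase), Acsbg1 (an acyl-CoA synthetase), Apoe (the main lipid carrier of the brain), Htra1, Mfge8, Gjb6, Fgfr3 and the metallothionein gene Mt1 complete the 9 genes whose gene value passed nowhere. Among their probe sets, 1 of Fgfr3 rose in the hippocampus by 0.23 (adjusted p = 0.0441) and 1 of Mt1 fell in the PFC. Dbi, which encodes an acyl-CoA binding protein, fell in the amygdala by 0.33 (adjusted p = 0.00178) and rose in the CC by 0.34 (adjusted p = 0.00731). Aldoc, the aldolase C gene, rose by 0.15 in the PFC (adjusted p = 0.0376) and by 0.15 in the CC, where its adjusted p lay just inside the threshold. In the PFC its probe set 1424714_at gave 0.35 (adjusted p = 0.0351) and 1451461_a_at gave -0.056 (adjusted p = 0.231).

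The metallothioneins bind zinc and copper, and Mt1 and Mt2 are known to be induced together by metals and glucocorticoids. Mt1, Mt2 and Mt3 lie next to each other on chromosome 8, with Mt2 ending 5316 bases before Mt1 starts (GRCm38.p6). Here Mt2 passed in 3 areas and the mean of both Mt1 probe sets in none, although 1 of them passed in the PFC. The promoters of the 3 genes, from 250 bases before to 50 after a start in RefSeq, are shown because these neighbours, known for the same kind of motif, passed in different numbers of areas. Capitals mark the core of the metal response element, TGCNCNC on either strand, which 51.0% of 32851 promoters of this length hold. The Mt1 window lies around a start inside the annotated gene.
Mt1 promoter, chr8:94178839-94179138, + strand: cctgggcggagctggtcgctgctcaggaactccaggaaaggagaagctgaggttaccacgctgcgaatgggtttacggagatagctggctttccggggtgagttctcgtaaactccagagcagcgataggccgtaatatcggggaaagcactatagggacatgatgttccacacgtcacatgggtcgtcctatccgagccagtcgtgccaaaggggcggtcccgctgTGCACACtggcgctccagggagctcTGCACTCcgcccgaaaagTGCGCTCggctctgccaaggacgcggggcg
Mt2 promoter, chr8:94172368-94172667, + strand: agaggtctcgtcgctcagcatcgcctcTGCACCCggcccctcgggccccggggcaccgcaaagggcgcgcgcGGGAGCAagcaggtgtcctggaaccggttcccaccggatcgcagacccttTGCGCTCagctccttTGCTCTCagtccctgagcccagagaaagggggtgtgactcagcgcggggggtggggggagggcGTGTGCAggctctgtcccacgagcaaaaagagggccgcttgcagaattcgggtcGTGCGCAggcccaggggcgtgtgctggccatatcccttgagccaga
Mt3 promoter, chr8:94152357-94152656, + strand: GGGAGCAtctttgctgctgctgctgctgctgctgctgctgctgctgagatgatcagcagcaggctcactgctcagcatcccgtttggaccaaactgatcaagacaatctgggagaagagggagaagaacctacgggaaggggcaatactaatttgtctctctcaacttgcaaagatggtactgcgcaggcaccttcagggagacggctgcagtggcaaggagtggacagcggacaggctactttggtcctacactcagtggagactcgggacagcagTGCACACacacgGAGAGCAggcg

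The Mt2 window holds 6 matches, and those of Mt1 and Mt3 hold 3 each. In the amygdala Mt2 read -0.19, -0.33 and -0.45 with CMS and 0.10, 0.16 and 0.14 in controls, a fall of 0.45 (SE 0.0703, adjusted p = 0.0156). In the hippocampus it read 0.056, 0.00062 and 0.10 with CMS and 0.35, 0.32 and 0.48 in controls, a fall of 0.33 (adjusted p = 0.0169). Its PFC arrays read -0.30, -0.23 and -0.27 with CMS and 0.092, 0.012 and 0.17 in controls, a fall of 0.36 (adjusted p = 0.0155). In each of these areas all CMS arrays lay below all control arrays. With 1 array left out, Mt2 did not pass in 4 of 6 fits in the amygdala, 4 of 6 in the hippocampus and 3 of 6 in the PFC, with an adjusted p up to 0.0705 over all alternatives run. The CC arrays of Mt2 did not overlap in the other direction, -0.042, -0.004 and -0.00062 with CMS and -0.16, -0.22 and -0.45 in controls, but the difference of 0.26 did not pass (adjusted p = 0.106).

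Mt1 differed by -0.032 in the amygdala, 0.03 in the CC, -0.063 in the hippocampus and -0.10 in the PFC, with adjusted p from 0.313 to 0.637. Its probe sets did not read alike. In the PFC 1422557_s_at fell by 0.19 (adjusted p = 0.027), the same direction as Mt2, and 1451612_at gave -0.0036. For the CC they gave 0.23 and -0.17, neither past the test, so that the gene value averages opposite readings. The gene values overlapped between treatments in all 4 areas. Its amygdala arrays read -0.06, -0.058 and -0.075 with CMS and -0.032, -0.067 and 0.0021 in controls, and its hippocampal arrays -0.0083, 0.15 and 0.12 and 0.091, 0.21 and 0.15. The CC arrays read -0.14, -0.034 and -0.19 with CMS and -0.17, -0.16 and -0.13 in controls, and the PFC arrays -0.046, 0.043 and 0.19 and 0.14, 0.19 and 0.14. Mt3, the brain metallothionein, fell in the amygdala by 0.30 (adjusted p = 0.026), from -0.21, -0.24 and -0.26 to -0.41, -0.57 and -0.61. Its differences in the hippocampus, -0.082, CC, 0.20, and PFC, -0.039, did not pass. The Mt3 call was lost in 5 of 6 fits with 1 array left out. A difference between Mt1 and Mt2 in the response was not tested.

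Among secreted and lipid-carrying proteins, Fabp7 and Agt moved by the most. Fabp7 encodes the brain fatty acid binding protein of radial glia and astrocytes, a known target of Notch signalling through the factor RBP-J. Agt encodes angiotensinogen, the precursor of the angiotensins, which astrocytes make in the brain. Their promoters are shown because each gene moved in opposite directions in different areas. Capitals mark the RBP-J core TGGGAA in Fabp7, held on either strand by 25.6% of promoters, and the STAT palindrome TTCNNNGAA in Agt, held by 8.3%, each with 1 match.
Fabp7 promoter, chr10:57784673-57784972, + strand: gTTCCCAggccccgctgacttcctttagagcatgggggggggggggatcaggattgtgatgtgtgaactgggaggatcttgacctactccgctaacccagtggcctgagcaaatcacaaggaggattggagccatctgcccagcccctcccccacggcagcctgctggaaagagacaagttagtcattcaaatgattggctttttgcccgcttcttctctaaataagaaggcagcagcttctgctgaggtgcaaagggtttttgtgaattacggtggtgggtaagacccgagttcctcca
Agt promoter, chr8:124569657-124569956, - strand: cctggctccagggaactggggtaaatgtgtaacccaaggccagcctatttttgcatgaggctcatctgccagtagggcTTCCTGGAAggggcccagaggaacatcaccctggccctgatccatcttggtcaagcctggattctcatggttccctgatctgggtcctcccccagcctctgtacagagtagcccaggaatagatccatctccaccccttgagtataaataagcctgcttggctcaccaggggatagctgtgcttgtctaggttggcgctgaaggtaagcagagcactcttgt

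Fabp7 read 0.33, 0.13 and 0.20 with CMS and 1.41, 1.28 and 1.38 in controls in the amygdala. In the hippocampus it read -1.29, -1.30 and -1.25 with CMS and -0.13, -0.25 and -0.15 in controls. Both falls were of like size, -1.14 ± 0.0644 (SE, adjusted p = 0.00166) and -1.10 ± 0.0368 (SE, adjusted p = 0.00229), with no overlap of arrays. In the PFC, where its level was highest, Fabp7 read 2.44, 2.46 and 2.53 with CMS and 1.83, 2.01 and 1.86 in controls and rose by 0.57 ± 0.0572 (SE, adjusted p = 0.00997). Its CC arrays read -0.27, -0.26 and -0.35 with CMS and -0.48, -0.39 and -0.54 in controls, and the difference of 0.17 did not pass (adjusted p = 0.0936).

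Agt read 1.61, 1.66 and 1.59 with CMS and 2.86, 2.79 and 3.05 in controls in the amygdala, a fall of 1.28 (SE 0.0712, adjusted p = 0.00158). In the hippocampus it read 0.94, 1.06 and 1.12 with CMS and 0.18, 0.33 and 0.52 in controls and rose by 0.69 ± 0.101 (SE, adjusted p = 0.0158). Neither pair of groups overlapped. Its PFC arrays read -1.05, -0.64 and -1.21 with CMS and -0.24, -0.32 and -0.18 in controls, and the difference of -0.72 missed the threshold (adjusted p = 0.0508). Its CC arrays read -1.63, -1.43 and -1.44 with CMS and -1.72, -1.61 and -3.59 in controls. The difference of 0.81 there (adjusted p = 0.375) is set by control replicate 3, which lies below the other 5 arrays. In the amygdala the hypothalamic gene list, and in the hippocampus the list for thalamus and habenula, moved in the same direction as Agt, at medians of -0.12 and 1.11; their part in it was not tested.

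Cst3 (cystatin C) fell in the amygdala by 0.32 (adjusted p = 0.0115) and in the hippocampus by 0.26 (adjusted p = 0.0317). Sparcl1, which encodes the synapse-promoting protein hevin, fell in the amygdala by 0.19 (adjusted p = 0.00592). Clu (clusterin) fell in the PFC by 0.20 (adjusted p = 0.0278). No gene of the 8 secreted proteins passed in the CC; at an unadjusted p under 0.05, Apoe and Fabp7 were higher there and Clu and Mfge8 lower. The 8 genes thus held both directions in the hippocampus and the PFC.

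Of the 7 transcription factors, receptors and surface proteins, 1 fell in the amygdala and 4 fell in the hippocampus, while in the CC 1 rose and in the PFC 3 fell and 1 rose. Of all genes, 8.84% fell in the amygdala and 24.9% in the hippocampus, 5.95% rose in the CC, and in the PFC 3.92% fell and 4.45% rose. Id3, an inhibitor of basic helix-loop-helix factors, read 0.11, 0.30 and 0.055 with CMS and -0.50, -0.50 and -0.93 in controls in the CC, a rise of 0.80 ± 0.14 (SE, adjusted p = 0.0271) that was lost in 5 of 6 fits with 1 array left out. It also rose in the PFC by 0.45 ± 0.0514 (SE, adjusted p = 0.0125), from -0.20, -0.079 and -0.055 to 0.27, 0.38 and 0.36. In the hippocampus Id3 fell by 0.26 (adjusted p = 0.00799). These 3 areas showed no overlap, and the amygdala arrays overlapped.

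In the hippocampus F3, the tissue factor gene, read -0.29, -0.30 and -0.28 with CMS and 0.0052, 0.075 and 0.11 in controls, a fall of 0.35 (adjusted p = 0.00652). Gpc5, a glypican gene, read -0.36, -0.22 and -0.21 with CMS and 0.14, 0.021 and 0.17 in controls, a fall of 0.37 (adjusted p = 0.0183). Both are surface proteins, and neither passed in another area. S100b, a calcium-binding protein gene, fell in the hippocampus by 0.26 (adjusted p = 0.0393) and in the PFC by 0.17 (adjusted p = 0.0377). Ntsr2, a neurotensin receptor gene, read -0.076, -0.022 and -0.025 with CMS and 0.30, 0.18 and 0.23 in controls in the PFC, a fall of 0.28 (adjusted p = 0.0174), and fell in the amygdala by 0.23 (adjusted p = 0.0419). These calls were lost in 4 and 5 of 6 fits with 1 array left out. Sox9, the transcription factor of the glial lineage, differed in the PFC by -0.19 and lay just inside the threshold (adjusted p = 0.0466). It did not pass in 11 of 15 alternatives, among them all 6 fits with 1 array left out, with an adjusted p up to 0.425, and none of its 3 probe sets passed there. In the amygdala its probe set 1424950_at fell by 0.81 (adjusted p = 0.0173) and 1433889_at rose by 0.27 (adjusted p = 0.00282), and the gene value did not pass.

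Of the 35 genes, 9 passed in no area, 8 in 1, 12 in 2, 6 in 3 and 0 in all 4. Gfap, Aqp4, Slc4a4, Slc1a2, Dbi, Agt, Fabp7 and Id3 are the 8 that passed in opposite directions in different areas. The hippocampal fall of Slc1a2 among them passed in none of its single probe sets. Shares of all genes were not computed for these counts over areas, so they describe the listed genes only. Whether the CMS effect differed between areas was tested in 1 fit of all 24 arrays. The effect differed for 28 of the 35 genes, where 52.3% of all genes did. For 5 the 4 effects also spanned more than 1 on the log2 scale, where 2.47% of all genes did. These were Agt with a range of 2.09 (adjusted p = 0.00242), Fabp7 with 1.71 (adjusted p = 1.99e-11), Slc14a1 with 1.39 (adjusted p = 0.000889), Aqp4 with 1.17 (adjusted p = 1.95e-09) and Id3 with 1.05 (adjusted p = 3.84e-05).

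The amygdala and the CC differed most often. The CMS effect was lower in the amygdala than in the CC for 24 genes and higher for 0, where 13.7% and 24.7% of all genes were. The effect was lower in the hippocampus than in the CC for 19 and higher for 0, where 9.81% and 3.81% of all genes were. It was higher in the CC than in the PFC for 12 and lower for 1, where 6.37% and 7.99% were. Between the amygdala and the hippocampus the amygdala effect was lower for 12 and higher for 4, where 9.4% and 31.2% of all genes were. The amygdala effect was lower than the PFC effect for 12 and higher for 1, where 8.05% and 5.96% were, and the hippocampal effect was lower than the PFC effect for 9 and higher for 3, where 28% and 6.71% were. These pairs share arrays, so the counts are not independent of each other. For Aqp4 the amygdala effect minus the CC effect was -1.17 ± 0.0681 (SE, adjusted p = 1.25e-09), for Slc4a4 it was -0.61 ± 0.039 (SE, adjusted p = 3.77e-09), and for Gfap -0.94 ± 0.0795 (SE, adjusted p = 1.08e-07). For Gja1 the amygdala effect was below the hippocampal effect by 0.56 ± 0.0529 (SE, adjusted p = 7.13e-07). For Fabp7 these 2 areas gave a difference of effects of -0.032 ± 0.0798 (SE, adjusted p = 0.784), while the hippocampal effect minus the PFC effect was -1.68 ± 0.0798 (SE, adjusted p = 1.28e-10).

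Levels also differed between the areas in control mice, whose arrays are those of the comparisons above. The control level differed between areas for 34 of the 35 genes (F test in limma, adjusted over all genes), all but Fgfr3, where 58.1% of all genes did. Of the 35 genes, 17 were highest in the amygdala, 9 in the PFC, 5 in the hippocampus and 4 in the CC. The lowest level lay in the CC for 20, in the hippocampus for 8 and in the PFC for 7. Shares of all genes by highest or lowest area were not computed. The 8 that were lowest in the hippocampus were Glul, Aldh1l1, Aldoc, Acsbg1, Mfge8, Sparcl1, Htra1 and S100b. The amygdala was above the CC for 26 genes and below it for 1, where 18% and 15% of all genes were. It was above the hippocampus for 22 and below for 6, where 27.5% and 13.2% were. The hippocampus was above the CC for 20 and below for 7, where 12.5% and 24.2% were, and the CC was below the PFC for 18 and above for 5, where 15.6% and 16.8% were. Amygdala levels lay above those of the PFC for 13 and below for 6, where 21.1% and 18.1% were, and hippocampal levels lay above those of the PFC for 11 and below for 14, where 32.2% and 25.9% were.

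The area means spanned more than 1 on the log2 scale for 5 genes, where 10.4% of all genes did. Agt spanned 5.21 (adjusted p = 2.31e-05), from 2.90 ± 0.131 (SD, n = 3) in the amygdala through 0.34 ± 0.172 in the hippocampus and -0.25 ± 0.0715 in the PFC to -2.31 ± 1.12 in the CC. The hippocampus and PFC were neighbours in that order and did not pass (adjusted p = 0.256). Fabp7 spanned 2.37 and was highest in the PFC at 1.90 ± 0.1, then 1.36 ± 0.0662 in the amygdala, -0.18 ± 0.063 in the hippocampus and -0.47 ± 0.0737 in the CC. All neighbours in that order differed, the last pair at an adjusted p of 0.00329.

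Gfap spanned 2.21 and was highest in the hippocampus at 1.40 ± 0.0189, then 0.40 ± 0.021 in the amygdala, -0.38 ± 0.0622 in the PFC and -0.81 ± 0.15 in the CC, with all neighbours past the test. Slc14a1 spanned 1.43, with 1.02 ± 0.227 in the amygdala and 0.92 ± 0.212 in the hippocampus above -0.23 ± 0.0515 in the PFC and -0.41 ± 0.331 in the CC. Within each of these pairs the areas did not pass (adjusted p = 0.638 and 0.413). Aqp4 spanned 1.32, from 0.56 ± 0.0418 in the amygdala through 0.27 ± 0.0812 in the hippocampus and -0.077 ± 0.0229 in the PFC to -0.76 ± 0.131 in the CC, all neighbours past the test. Dbi, F3 and Slc4a4 followed, with ranges of 0.94, 0.91 and 0.88, each highest in the amygdala.

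**Figure D3:**
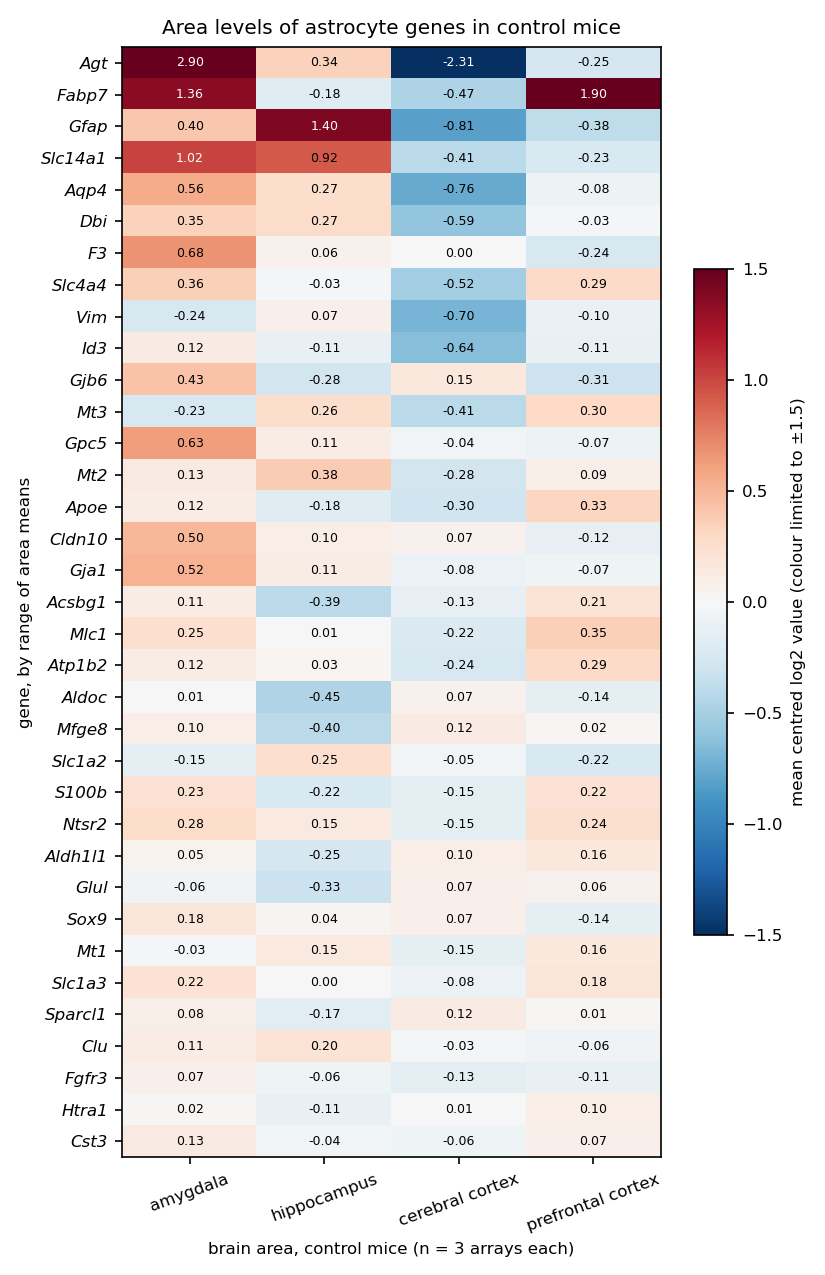
Mean centred log2 value of the 35 astrocyte genes (rows, by the range of their area means) in 4 brain areas (columns) of control mice, n = 3 arrays each, with the mean printed in each cell and colour limited to ±1.5. The amygdala column is mostly red and the CC column mostly blue, with the hippocampus lowest for the 8 genes named in the text.

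The CMS arrays, a separate set, gave another order of areas. All 35 genes differed between areas on them, 4 with a range over 1, and these 4 were also among the 5 of the control arrays. The highest area was the same in both sets for 18 genes, and the lowest for 18. On the CMS arrays 12 genes were highest in the PFC, 9 in the CC, 8 in the hippocampus and 6 in the amygdala. The CC was lowest for 6, and the hippocampus for 17. For these counts on the CMS arrays the shares of all genes were not computed.

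A longer list of 39 further astrocyte genes and markers of other cells were read in the same fits. For all these lists the background is the share of all genes. In the amygdala 8.84% of all genes fell and 10.5% rose, and in the hippocampus 24.9% and 4.66%. In the CC 3.99% fell and 5.95% rose, and in the PFC 3.92% and 4.45%. Of the 39 further astrocyte genes, 22 fell and 2 rose in the amygdala (median -0.28), 6 fell and 3 rose in the hippocampus, 7 rose and 1 fell in the CC, and 4 fell and 2 rose in the PFC. Their array means in the amygdala were -0.047 to 0.019 with CMS and 0.27 to 0.29 in controls, and those of the 35 genes were 0.051 to 0.095 with CMS and 0.32 to 0.33 in controls. In the amygdala Gabrg1, a GABA receptor subunit, fell by 0.63 (adjusted p = 0.000738) and Slc39a12, a zinc transporter, by 0.49 (adjusted p = 0.00148). Of those that rose in the CC, Ppp1r3c, a glycogen regulator, changed by 0.49 (adjusted p = 0.0015) and Ednrb, an endothelin receptor, by 0.46 (adjusted p = 0.00354).

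Of 33 genes raised in reactive astrocytes, 5 rose and 2 fell in the amygdala, 0 rose and 8 fell in the hippocampus, 4 rose and 1 fell in the CC, and 4 rose and 3 fell in the PFC. The 8 that fell in the hippocampus are a share close to the 24.9% of all genes that fell there. Srgn, a proteoglycan also made by blood cells, rose in the amygdala by 0.51 (adjusted p = 0.00402), in the CC by 0.51 (adjusted p = 0.00513) and in the PFC by 0.43 (adjusted p = 0.0184). Lcn2, which neutrophils also make, rose in the PFC by 3.54 (adjusted p = 0.000488), where S100a9 of the neutrophil list rose by 3.39 (adjusted p = 3.77e-05). Of 19 glucocorticoid-responsive genes, 6 fell and 1 rose in the amygdala, among them Tsc22d3, by 0.57 (adjusted p = 0.000762). Of the 19, 5 fell and 2 rose in the CC, where Dusp1, a phosphatase gene, fell by 0.84 (adjusted p = 0.0015) and Fkbp5, a co-chaperone of the glucocorticoid receptor, rose by 0.43 (adjusted p = 0.00203). In the hippocampus 6 of the 19 fell and 2 rose, and in the PFC 6 fell and 3 rose. The 6 that fell in the hippocampus are near the 24.9% of all genes that did.

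Oligodendrocyte markers moved the same way as the astrocyte genes in the amygdala and the CC. In the amygdala 10 of 11 fell (median -0.57), with list means of -0.58 to -0.55 with CMS and 0.028 to 0.08 in controls. Of the same 11, 7 rose in the CC (median 0.25) and 7 fell in the PFC (median -0.33). Of 11 microglial genes, 1 rose in the amygdala, 5 rose in the CC and 0 fell in any area. The amygdala had 5 of 14 neuronal genes higher and 3 lower, and the CC 4 higher and 3 lower, all past the test. Of 13 choroid plexus genes, 12 fell in the CC (median -2.51) and 6 in the PFC. The part of these cell types in the results on astrocyte genes was not tested.

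**Figure D4:**
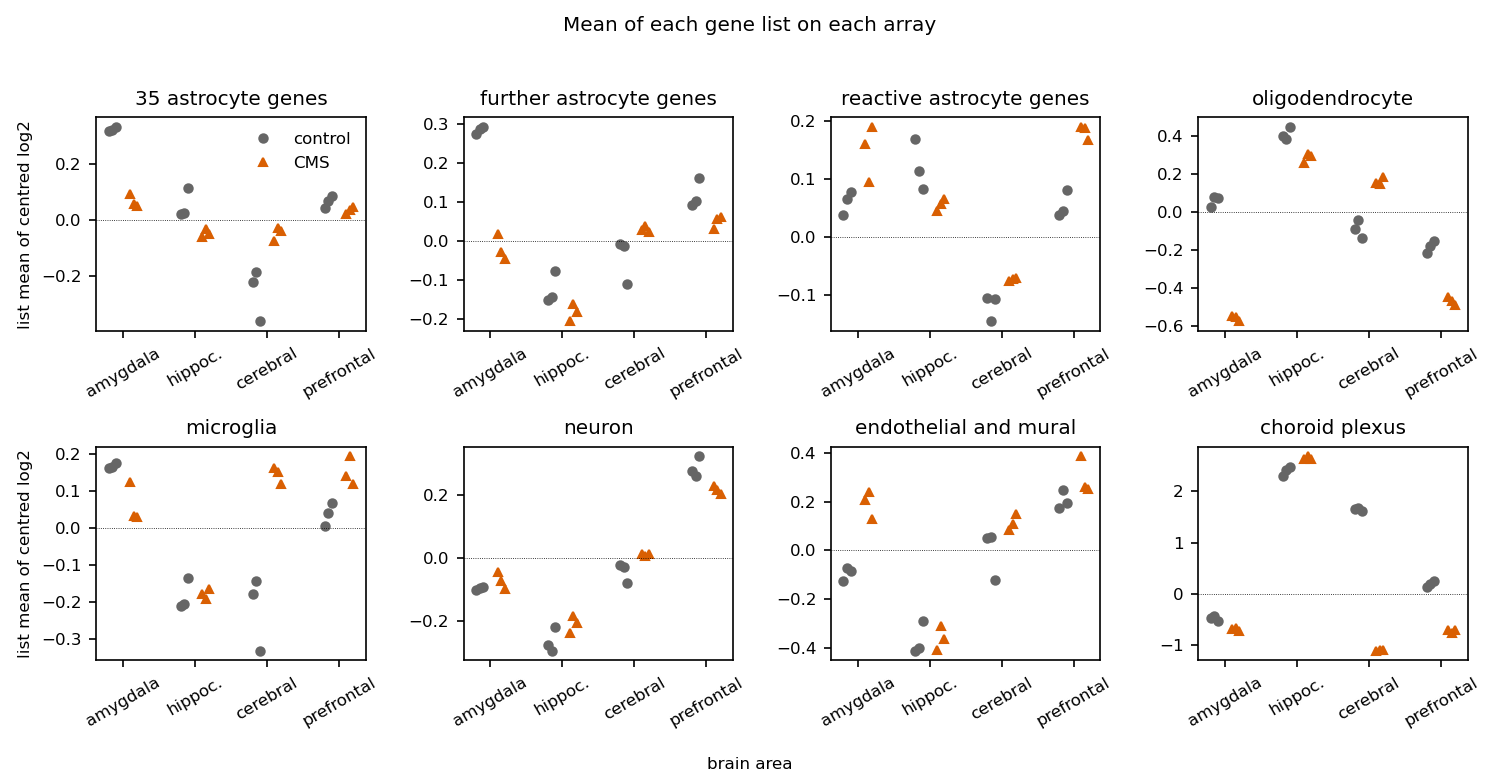
Mean centred log2 value (y axis) of each gene list on each array in 4 brain areas (x axis), with control arrays as grey circles and CMS arrays as orange triangles; y axes differ between panels. The main astrocyte, further astrocyte and oligodendrocyte panels show CMS arrays below control arrays in the amygdala and above them in the CC. The reactive astrocyte panel shows CMS arrays above control arrays in the amygdala and in the CC. The choroid plexus panel shows control arrays far above CMS arrays in the CC.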

How the data were processed

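GCRMA values were made by the authors in GeneSpring GX from the array files, with a normalization to a baseline (named baseline to mean in the methods). No software version is given in the sources used here. They were deposited on the log2 scale, and each probe set has a median of 0 over all 24 arrays. Such centring keeps differences between arrays and removes levels, so no filter on brightness was possible, and precision is limited by how many arrays there are. Pooled RNA is named in the methods and independent mice in the results, so p-values may measure only a technical spread between samples. The labels give no scan date. The upper end of the age range in some sample descriptions differs from that in the age field, which is the one given here.

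Of 45101 probe sets, 64 Affymetrix controls were left out and 34945 of the rest matched 1 gene symbol in the platform annotation, which gave 18193 genes. Each area was fitted with limma 3.58.1 in R 4.3.3, CMS against control, two-sided, with Benjamini-Hochberg adjustment over all genes. The study's threshold adds a fold change over 2. The 12 control arrays gave the test of area levels, and all 24 arrays gave the test of the CMS effect between areas. With 3 arrays against 3, an exact permutation test of a single gene cannot go below p = 0.1. The scripts were tested on simulated data.

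The members and the gene lists were chosen with earlier results of these data known, and so were the tests. Array values are given for the 6 defining markers, the metallothioneins, the 6 largest changes per area among genes that passed without overlap, the 8 widest ranges between control areas (as means or ranges), the 4 lowest p-values of the test between areas, and genes whose probe sets passed in opposite directions. Up to 2 genes per area with the lowest p were named from the other lists. Alternatives were the most variable or the median probe set, probe sets in place of genes, quantile normalization, median centring, the more variable genes, array weights, trend with robust options, a replicate block, the mouse as a random block, all arrays in 1 fit, the methods' t-test, the CMS arrays for area levels, and leaving out each array. Promoters came from RefSeq (GRCm38.p6), where 29 of the genes matched. Figures were drawn with matplotlib 3.10.9.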

Additional observations from a re-analysis of the deposited data

Results flagged for a closer look

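The CMS effect of 5 astrocyte genes differed between areas, by an F test over the 4 effects in 1 limma fit of all 24 arrays, with a range of effects over 1 on the log2 scale. The range was 2.09 for Agt (adjusted p = 0.00242), between -1.28 in the amygdala and 0.81 in the cerebral cortex. That upper end rests on control replicate 3 of the cerebral cortex, which read -3.59. Fabp7 had a range of 1.71 (adjusted p = 1.99e-11), from -1.14 (amygdala) to 0.57 (prefrontal cortex). Slc14a1 had a range of 1.39 (adjusted p = 0.000889), from -1.14 in the amygdala to 0.25 in the cerebral cortex. Aqp4 had a range of 1.17 (adjusted p = 1.95e-09), from -0.28 in the amygdala to 0.88 in the cerebral cortex, and its 3 probe sets did not move alike. Id3 had a range of 1.05 (adjusted p = 3.84e-05), from -0.26 in the hippocampus to 0.80 in the cerebral cortex. The choroid plexus, striatal and oligodendrocyte lists differed between CMS and control in the cerebral cortex, and the hypothalamic and oligodendrocyte lists in the amygdala. Their part in these ranges was not tested.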

How the results depend on the processing

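Of the differences of named genes that passed and were refitted under other settings, none changed sign. Counts of genes have no sign, so a reversal could not show in them. Single probe sets of Sox9 in the amygdala and of Aqp4 in the hippocampus passed in opposite directions, where the gene values did not pass. In the amygdala 18 genes passed, and 11 with a replicate block, which pairs CMS and control arrays of the same number. In the hippocampus 12 passed, and 7 with each array centred on its median, 21 with array weights, 0 with the replicate block and 19 by probe sets, while the 1 gene past a fold of 2 (Fabp7) became 0 with quantile normalization or the replicate block. In the cerebral cortex 8 passed, and 13 with quantile normalization, 17 with array weights, 17 with all 24 arrays in 1 fit, 5 with the replicate block and 5 with the methods' t-test, while 0 genes past a fold of 2 became 2 with the most variable probe set or by probe sets. In the prefrontal cortex 12 passed, and 7 with trend and robust options, 2 with the replicate block and 5 with the methods' t-test. The counts of 5 genes with wide ranges between control areas and of 5 with wide ranges of the CMS effect each became 9 with the most variable probe set and 10 by probe sets. The replicate numbers did not pair the arrays: deviations of same-numbered CMS and control arrays correlated at -0.065 to 0.027, and arrays of the same treatment and number in different areas had a consensus correlation of -0.092. The replicate block left both counts of 5 as they were.

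Leaving out 1 array at a time gave 13 to 21 genes in the amygdala, 3 to 13 in the hippocampus, 4 to 10 in the cerebral cortex and 3 to 9 in the prefrontal cortex. With the fold threshold it gave 2 to 3, 1 to 1, 0 to 0 and 0 to 0 in the same order. It gave 5 to 5 between control areas and 4 to 6 for the CMS effect between areas. The hippocampal count was 3 without CMS replicate 3, 6 without CMS replicate 1 or 2, and 7 without control replicate 1 or 2. The cerebral cortical count was 4 without CMS replicate 2, 5 without CMS replicate 1 or 3 or control replicate 1, and 10 without control replicate 3, the array that stands apart. The prefrontal count was 3 without CMS replicate 1, 5 without CMS replicate 2, and 7 without CMS replicate 3, control replicate 1 or control replicate 3. Of the values of single genes under other settings, 347 kept their side of the threshold and 60 lost it, and with 1 array left out 174 kept it and 72 lost it. Gfap, Aqp4 and Slc4a4 in the amygdala lost it with the most variable probe set, Slc4a4 with a difference of -0.028 (adjusted p = 0.925). With 1 array left out the call was lost in all 6 fits for Sox9 (prefrontal cortex). It was lost in 5 for Mt3 and Ntsr2 (amygdala), Gja1 (hippocampus) and Id3 (cerebral cortex). It was lost in 4 for Mt2 (amygdala and hippocampus), Cldn10 and Slc1a2 (hippocampus), Slc4a4 and Ntsr2 (prefrontal cortex) and Vim (cerebral cortex). The cause of these changes was not tested beyond the smaller number of arrays.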
